A study of Mus musculus with 12 samples.

Results

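The genes described here make, conjugate, carry or control bile acids in mouse liver. They are a set of 10 members: the hydroxylases Cyp7a1, Cyp8b1, Cyp27a1 and Cyp7b1, the conjugating enzymes Slc27a5 and Baat, the carriers Abcb11 and Slc10a1, and the nuclear receptors Nr1h4 and Nr0b2. A probe was taken where the scanner file gives a member's symbol as its gene name, which found 12 probes for the 10 genes among 22127 genes tested. All 12 were well above background on all 12 arrays, so no member was lost to the filter on dim probes. RNA came from whole livers of untreated BALB/c mice, and each RNA was labelled with Cy3 on its own 1-colour Agilent array. The 4 groups were wild type at 6 weeks of age, wild type at 12 weeks, interleukin-18 knockout at 6 weeks and interleukin-18 knockout at 12 weeks, with 3 arrays in each group that the labels call biological replicates. Which part of Il18, a cytokine gene, was removed in the knockout mice is not given in these sources. The labels give neither the sex of the mice nor the hour at which they were killed.

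Hepatocytes turn cholesterol into bile acids along a classic route, which starts with 7α-hydroxylation of cholesterol by Cyp7a1, and an alternative route, in which Cyp27a1 oxidises the side chain and Cyp7b1 then adds the 7α-hydroxyl group. The products are joined to taurine in mice, secreted into bile, taken up again in the ileum and returned to the liver through the portal vein. Bile acids bind the nuclear receptor FXR, encoded by Nr1h4, which induces the repressor SHP, encoded by Nr0b2, and lowers Cyp7a1 and Cyp8b1 in a feedback loop. In mouse liver Cyp7a1 also follows a daily rhythm, and Cyp7b1 is known to be higher in males than in females.

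Levels are log2 intensities after Agilent's processing, less the 75th percentile of the same array, so a difference of 1 is 2-fold, and a level of 1 probe is not compared with that of another. Differences came from limma over all 12 arrays, are given ± SE, and were called at a Benjamini-Hochberg adjusted p under 0.05 over all genes tested. Il18 itself was at 2.40 ± 0.05 (SD, n = 3) and 2.30 ± 0.18 in wild type at 6 and 12 weeks and at -0.14 ± 0.19 and -0.04 ± 0.08 in the knockouts, so it followed the labels. Its probe was still well above background on all 12 arrays, knockouts included. Whole arrays correlated at 0.987 to 0.996 within a group and at 0.981 to 0.992 between groups, and 50.1 to 57.7% of spots were well above background. The arrays lay on 2 slides. On slide 1 were every 6-week wild type array and wild type replicate 1 of 12 weeks, and on slide 2 the other 8, including all 6 knockouts. At 6 weeks, slide and genotype therefore coincide, and the slide can be allowed for only through the wild type arrays of 12 weeks. In whole liver, fewer cells of a type and less RNA per cell cannot be told apart.

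At 6 weeks, knockout livers had more Cyp7b1 and less Cyp7a1 and Nr1h4 than wild type. These 3 members of 10 were called, 1 higher and 2 lower, beside 21.1% of all genes tested (11.7% higher, 9.35% lower). Over all genes, the split was 2591 higher and 2069 lower at 6 weeks, and without scaling between arrays it was 1187 higher and 5011 lower, with the median gene at -0.17 and the 3 members in the same direction. The same step changed the split from 1250 higher and 567 lower to 549 and 1325 at 12 weeks (median -0.11), and from 1019 and 980 to 774 and 1397 with age in wild type. With 1 probe a gene, as in all counts of this paragraph, the groups did not overlap in 6 members, beside 47.9% of all genes. In wild type livers 4 members differed between the ages: Cyp7b1 was higher at 12 weeks and Cyp7a1, Nr1h4 and Nr0b2 were lower, against a background of 9.03% of genes (4.61% higher, 4.43% lower), and 8 members did not overlap, beside 26% of genes. In knockout livers Nr0b2 was lower and Nr1h4 higher at 12 weeks than at 6, which is 2 members beside 6.91% of genes (3.98% higher, 2.93% lower), and 3 members did not overlap, beside 31.9%. Between the genotypes at 12 weeks limma called no member, beside 8.21% of genes (5.65% higher, 2.56% lower), and 3 had an unadjusted p under 0.05. There, with 1 probe a gene, only Nr1h4 among the 10 did not overlap, beside 27.4% of genes. Slc10a1 and Slc27a5 each had a second probe, which also did not overlap at 12 weeks. These probes were higher in knockout by 0.34 and 0.21, and limma called neither (adjusted p = 0.102 and 0.131). The genotype difference changed between the ages in 3 members, upward in Cyp7a1 and Nr1h4 and downward in Cyp7b1, beside 10.3% of genes (5.58% upward, 4.76% downward). The median difference over the 10 members was -0.02 at 6 weeks, 0.13 at 12 weeks, -0.24 with age in wild type and 0.10 with age in knockout, and over all genes it was 0.02, 0.01, -0.02 and -0.02.

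**Figure D1:**
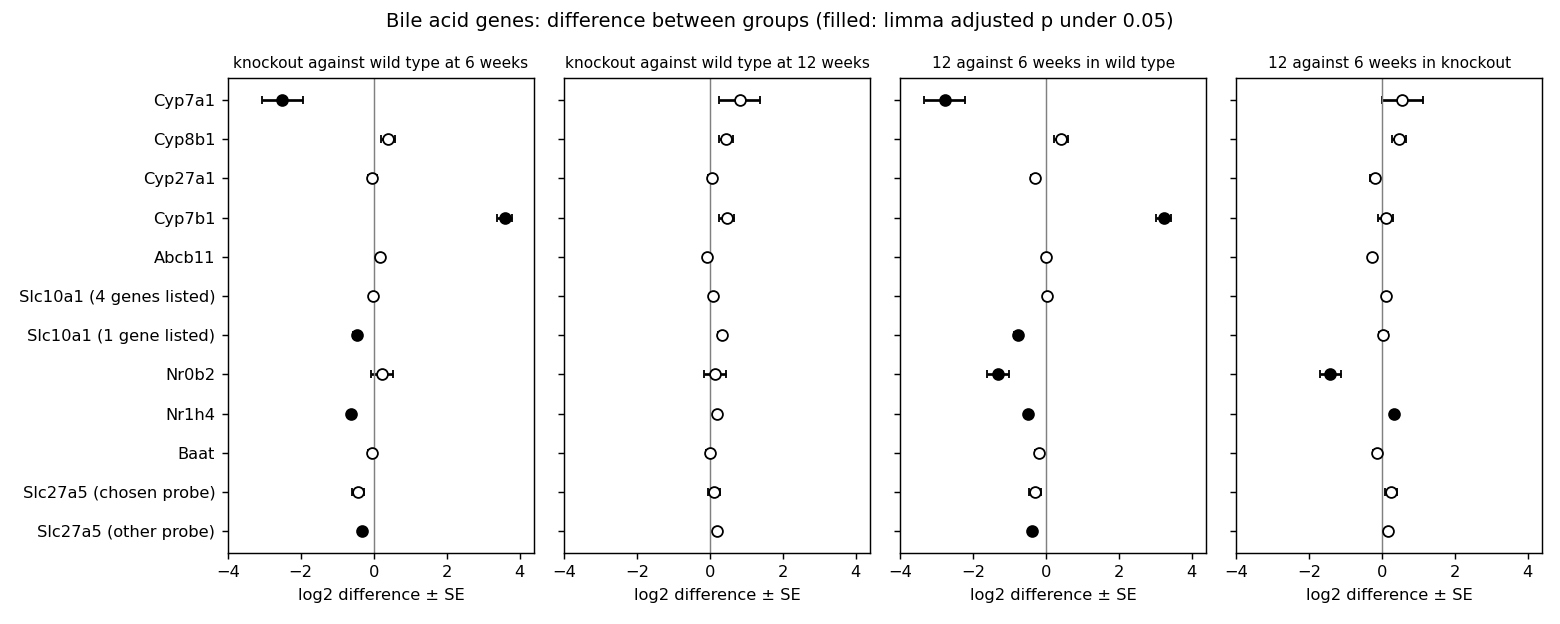
Differences in log2 level ± SE for the 12 probes of the 10 genes in the 4 comparisons; filled points passed an adjusted p of 0.05 in limma and open points did not. Cyp7a1 and Cyp7b1 lie on opposite sides of 0 at 6 weeks (-2.51 and 3.60) and with age in wild type (-2.78 and 3.23), and all points at 12 weeks are open.

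Cyp7a1, the rate-limiting enzyme of the classic route, was read by 1 probe at chr4:6193456-6193515 (mm9, minus strand). Its level was 3.82, 3.39 and 4.19 in wild type at 6 weeks and 0.94, 0.62 and 1.52 in wild type at 12 weeks. In knockout livers it was 0.09, 2.35 and 1.43 at 6 weeks and 1.51, 1.19 and 2.82 at 12 weeks. The 3 wild type livers of 6 weeks stood above the other 9, while the other 3 groups overlapped one another and the knockout livers were the most scattered (SD 1.14 at 6 weeks and 0.86 at 12, against 0.40 and 0.46 in wild type). Knockout was lower than wild type at 6 weeks by 5.70-fold (log2 difference -2.51 ± 0.56, adjusted p = 0.0132). At 12 weeks the difference was 0.82 ± 0.56 with a 95% interval of -0.43 to 2.06 (adjusted p = 0.403), and the groups overlapped. Wild type fell by 6.85-fold between the ages (-2.78 ± 0.56, adjusted p = 0.0153), and the knockout difference was 0.55 ± 0.56 (adjusted p = 0.647). The genotype difference itself differed between the ages by 3.33 ± 0.79 (adjusted p = 0.0253). With slide as a fixed block the estimates were as large but the calls were lost: -2.64 at 6 weeks (adjusted p = 0.231), -2.86 with age in wild type (0.102) and 3.42 for the change in genotype difference (0.0811). With slide as a random block the call at 6 weeks was also lost (-2.56, adjusted p = 0.0864). The calls with age in wild type (-2.81, 0.0413) and for the change in genotype difference (3.36, 0.0394) were kept there. Within slide 1, the single wild type array of 12 weeks differed from the mean of the 3 of 6 weeks by -2.86. The wild type age call was also lost without wild type replicate 3 of 6 weeks (-2.58, adjusted p = 0.0564) or wild type replicate 2 of 12 weeks (-2.57, adjusted p = 0.0585). The change in genotype difference was not called without wild type replicates 1 or 3 of 6 weeks, wild type replicate 2 of 12 weeks or knockout replicate 3 of 12 weeks (adjusted p from 0.0513 to 0.0632).

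Cyp7b1, the oxysterol 7α-hydroxylase of the alternative route, ran the opposite way. Its probe lies at chr3:17972286-17972345 (mm9, minus strand) and stood at 3.59, 3.68 and 3.49 in wild type at 6 weeks and at 7.23, 6.84 and 6.38 in wild type at 12 weeks. Knockout livers were at 7.11, 7.03 and 7.41 at 6 weeks and at 7.30, 7.02 and 7.53 at 12 weeks. The 3 wild type livers of 6 weeks were thus low together, and the other 9 livers formed 3 overlapping groups. Knockout was 12.1-fold higher at 6 weeks (3.60 ± 0.21, adjusted p = 9.98e-06), and wild type rose by 9.37-fold with age (3.23 ± 0.21, adjusted p = 3.55e-05). At 12 weeks the genotypes differed by 0.47 ± 0.21 (95% interval 0.01 to 0.93, adjusted p = 0.188), and the knockout differed by 0.10 ± 0.21 between the ages (adjusted p = 0.845). The change in genotype difference was -3.13 ± 0.29 (adjusted p = 0.00032). These 3 calls were kept with slide as a fixed block (4.22 at 6 weeks, adjusted p = 0.000713; 3.65 with age in wild type, 0.000235; -3.54 for the change in genotype difference, 0.000614) and as a random block. Within slide 1, the single wild type array of 12 weeks stood 3.65 above the mean of the 3 of 6 weeks.

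**Figure D2:**
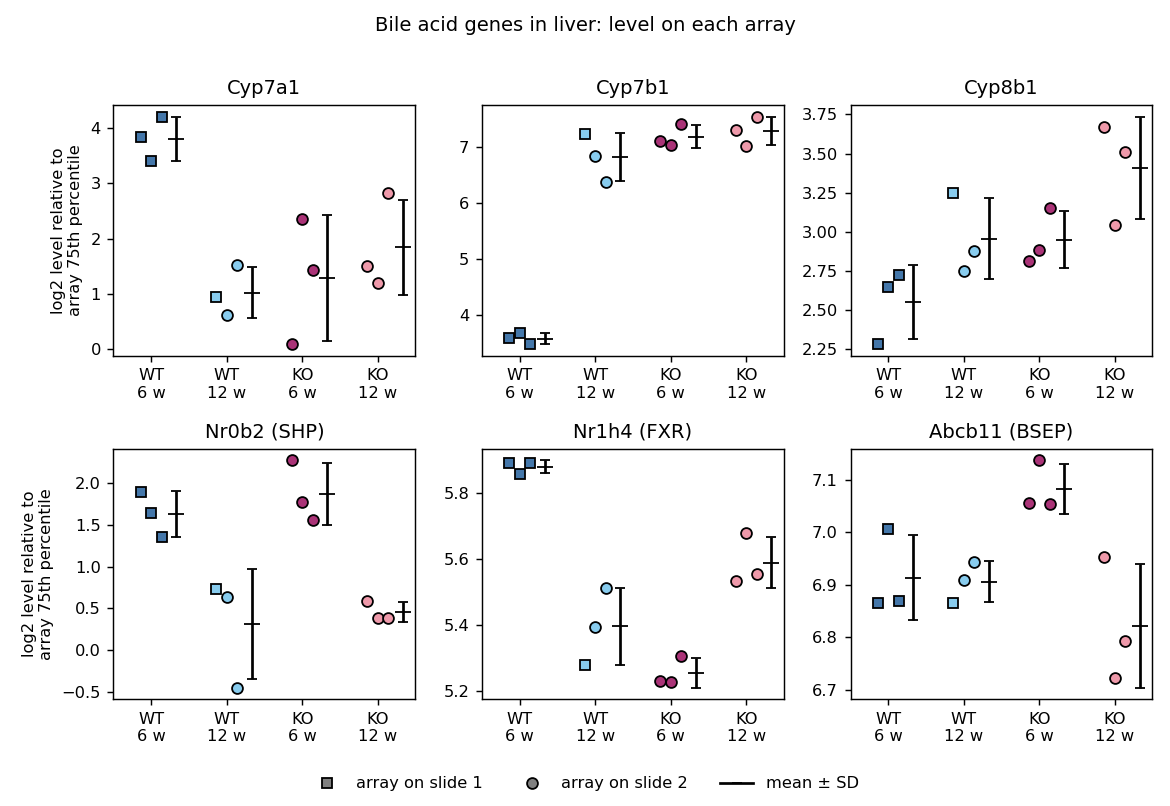
Level of Cyp7a1, Cyp7b1, Cyp8b1, Nr0b2, Nr1h4 and Abcb11 on each of the 12 arrays, in log2 against that array's 75th percentile (squares, slide 1; circles, slide 2), with the mean ± SD of each group of 3 as a bar. Wild type at 6 weeks stands apart in Cyp7a1 (3.39 to 4.19), Cyp7b1 (3.49 to 3.68) and Nr1h4 (5.86 to 5.89), and Nr0b2 separates by age in both genotypes.

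Cyp27a1, which starts the alternative route in mitochondria, did not pass the test in any comparison. Its probe (chr1:74782203-74782262, mm9, plus strand) was printed 10 times on each array, and the spots of 1 array had an SD of 0.0385 to 0.0778. It stood at 3.70, 3.48 and 3.45 in wild type at 6 weeks and at 3.33, 3.11 and 3.29 in wild type at 12 weeks, which did not overlap but differed by only -0.30 ± 0.12 (adjusted p = 0.145). Knockout livers were at 3.53, 3.53 and 3.44 at 6 weeks and at 3.49, 3.07 and 3.35 at 12 weeks. The genotype difference at 6 weeks was -0.04 ± 0.12, with a 95% interval of -0.30 to 0.22.

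Cyp8b1, the sterol 12α-hydroxylase that sets the share of cholic acid, was not called either. Its probe (chr9:121824595-121824654, mm9, minus strand) was at 2.28, 2.65 and 2.72 in wild type at 6 weeks and at 3.24, 2.75 and 2.87 in wild type at 12 weeks. The knockout levels were 2.81, 2.88 and 3.15 at 6 weeks and 3.67, 3.04 and 3.51 at 12 weeks. The 3 wild type livers of 6 weeks were the lowest of the 12, and the other groups overlapped those next to them in level. The differences were 0.40 ± 0.19 for genotype at 6 weeks (adjusted p = 0.161), 0.45 at 12 weeks (0.177), 0.41 with age in wild type (0.218) and 0.46 with age in knockout (0.195). In the comparisons where Cyp7a1 was lower, Cyp8b1 was not called and its estimates were above 0.

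Slc27a5, the ligase that activates bile acids with coenzyme A before conjugation, had 2 probes. The probe at chr7:13573924-13573983 (mm9, minus strand) stood at 8.17, 8.07 and 8.13 in wild type at 6 weeks and at 7.73, 7.75 and 7.76 in wild type at 12 weeks. In knockout livers it was at 7.73, 7.85 and 7.81 at 6 weeks and at 8.09, 7.88 and 7.90 at 12 weeks. Wild type at 6 weeks was above both wild type at 12 weeks and knockout at 6 weeks without overlap. In the fit of every probe, knockout was 1.25-fold lower at 6 weeks (-0.32 ± 0.08, adjusted p = 0.018, beside 19.8% of probes called), wild type was 1.30-fold lower at 12 weeks (-0.37 ± 0.08, adjusted p = 0.0181) and the change in genotype difference was 0.53 ± 0.11 (adjusted p = 0.0145). The fit with slide as a fixed block put the first at -0.35 (adjusted p = 0.234), the second at -0.39 (0.096) and the third at 0.55 (0.0442). The call at 6 weeks was lost without wild type replicates 1 or 3 or knockout replicate 1 (-0.29 to -0.32, adjusted p from 0.0542 to 0.0621), and the age call without wild type replicates 1 or 3 of 6 weeks or 2 of 12 weeks (-0.35 to -0.37, 0.0561 to 0.0602). The other probe, at chr7:13573701-13573760 and used for the gene because its mean was higher, differed by -0.44 ± 0.16 at 6 weeks and was not called (adjusted p = 0.0839), with knockout replicate 3 of 6 weeks at 8.30 against 8.89 and 9.07 in the other two. Its difference ran from -0.59 to -0.21 as 1 array was left out, and it was called without knockout replicate 2 (-0.59, adjusted p = 0.0399), without scaling (-0.62, 0.0305) and for the mean of both probes (-0.38, 0.0258). Baat, which joins the activated bile acid to taurine in mice, lay between 3.11 and 3.61 on all 12 arrays (chr4:49502933-49502992, mm9, minus strand). Its genotype difference was -0.05 ± 0.10 at 6 weeks and 0.00 ± 0.10 at 12 weeks, and neither was called.

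Abcb11, the canalicular bile salt export pump and a target of FXR, varied little. Its probe (chr2:69076365-69076424, mm9, minus strand) was at 6.86, 7.01 and 6.87 in wild type at 6 weeks and at 6.86, 6.91 and 6.94 in wild type at 12 weeks. In knockout it was at 7.06, 7.14 and 7.05 at 6 weeks and at 6.95, 6.72 and 6.79 at 12 weeks. The knockout livers of 6 weeks were the highest of the 12 by a narrow margin. The knockout difference with age was -0.26 ± 0.08 (adjusted p = 0.0811) and the genotype difference at 6 weeks was 0.17 ± 0.08 (adjusted p = 0.15), so neither was called.

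Slc10a1, the sodium-dependent uptake carrier NTCP, had 2 probes that gave different answers. The stretches below show why the pair is set out, with capitals for a run of 20 bases that 2 probes of other genes on the array share with the first. Over all its runs of that length, 3 probes of other genes share at least 1.
Slc10a1 probe A_55_P1954987, chr12:82056569-82056598 (mm9, minus strand): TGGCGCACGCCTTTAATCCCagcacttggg
Slc10a1 probe A_52_P69109, chr12:82061500-82061529 (mm9, minus strand): cctacaaaggcattatgttatcactcgtca
The first probe had the higher mean and so stood for the gene, but its accessions list 4 genes (Slc10a1, 4930402H24Rik, Spc24 and Med16), and its letters read like a short interspersed repeat of the B1 kind. It stayed between 8.93 and 9.25 on all 12 arrays and was called in no comparison (-0.01 ± 0.08 at 6 weeks, adjusted p = 0.946). The second lists Slc10a1 alone and shares no run of 20 bases with a probe of another gene. It stood at 5.70, 5.48 and 5.52 in wild type at 6 weeks and at 4.86, 4.65 and 4.90 in wild type at 12 weeks. Knockout livers were at 5.20, 5.12 and 4.98 at 6 weeks and at 5.25, 4.94 and 5.24 at 12 weeks. Wild type at 6 weeks was the highest and wild type at 12 weeks the lowest, with both knockout groups between them. In the fit of every probe this probe was 1.38-fold lower in knockout at 6 weeks (-0.47 ± 0.11, adjusted p = 0.02) and 1.70-fold lower with age in wild type (-0.76 ± 0.11, adjusted p = 0.00465). It differed by 0.34 ± 0.11 at 12 weeks (adjusted p = 0.102), and the change in genotype difference was 0.80 ± 0.16 (adjusted p = 0.0134). None of the 3 was called with slide as a fixed block (-0.38, adjusted p = 0.385; -0.71, 0.0554; 0.75, 0.0614). The call at 6 weeks was also lost without wild type replicate 1 (adjusted p = 0.0668) or without knockout replicates 2 (0.0534) or 3 (0.0653). Counting a member as called by any of its probes, 5 of 10 were called at 6 weeks and 6 of 10 with age in wild type, beside 23.4% and 10% of all genes counted the same way (19.8% and 8.35% of single probes). The count was 0 at 12 weeks (8.88% of genes, 7.27% of probes), 2 with age in knockout (7.48% and 6.32%) and 5 for the change in genotype difference (11.4% and 9.68%).

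**Figure D3:**
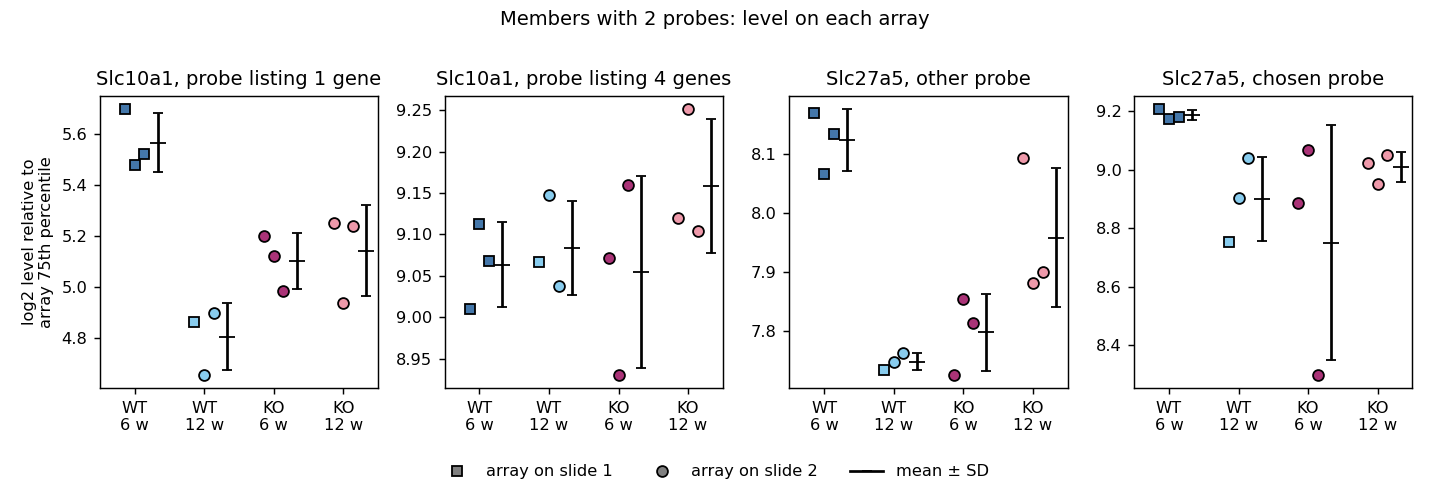
Level of both probes of Slc10a1 and of Slc27a5 on each array, in log2 against that array's 75th percentile (squares, slide 1; circles, slide 2), with the mean ± SD of each group of 3. The Slc10a1 probe that lists 1 gene falls from 5.48 to 5.70 in wild type at 6 weeks to 4.65 to 4.90 at 12 weeks, and the probe that lists 4 genes stays between 8.93 and 9.25.

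Nr1h4, the bile acid receptor FXR, was read at chr10:88917222-88917281 (mm9, minus strand). Its level was 5.89, 5.86 and 5.89 in wild type at 6 weeks and 5.28, 5.39 and 5.51 in wild type at 12 weeks. Knockout livers were at 5.23, 5.23 and 5.31 at 6 weeks and at 5.53, 5.68 and 5.56 at 12 weeks. Wild type at 6 weeks was highest, knockout at 12 weeks came next, and the other two groups overlapped below. Knockout was 1.54-fold lower at 6 weeks (-0.62 ± 0.08, adjusted p = 0.000731). At 12 weeks the difference was 0.19 ± 0.08 with no overlap and was not called (adjusted p = 0.153). Wild type fell by 1.40-fold with age (-0.48 ± 0.08, adjusted p = 0.00599) while knockout rose by 1.26-fold (0.33 ± 0.08, adjusted p = 0.0308), and the genotype difference changed by 0.82 ± 0.11 (adjusted p = 0.00187). With slide as a fixed block the difference was -0.80 at 6 weeks (adjusted p = 0.0131) and -0.60 with age in wild type (0.0135). The age call in wild type was lost when only these 2 groups were fitted (-0.48, adjusted p = 0.0687). The rise in knockout was lost when any 1 of the 6 knockout arrays was left out (0.29 to 0.36, adjusted p from 0.0584 to 0.115) and within slide 2 (0.33, adjusted p = 0.0506). It was also lost without the filter on dim probes (adjusted p = 0.0849) and when only the 2 knockout groups were fitted (0.0536). With slide as a fixed block it was kept (0.33, adjusted p = 0.0187).

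Nr0b2, the repressor SHP, was lower at 12 weeks in both genotypes and was not called between the genotypes. Its probe (chr4:133109694-133109753, mm9, plus strand) was at 1.89, 1.64 and 1.35 in wild type at 6 weeks and at 0.74, 0.64 and -0.45 in wild type at 12 weeks. Knockout livers were at 2.27, 1.77 and 1.55 at 6 weeks and at 0.59, 0.38 and 0.39 at 12 weeks. All 6 livers of 6 weeks were above all 6 of 12 weeks, and the genotypes overlapped at 6 weeks and at 12 weeks. The fall with age was 2.50-fold in wild type (-1.32 ± 0.30, adjusted p = 0.0238) and 2.66-fold in knockout (-1.41 ± 0.30, adjusted p = 0.0216). Genotype differences were 0.23 ± 0.30 at 6 weeks (adjusted p = 0.596) and 0.15 ± 0.30 at 12 weeks (0.805), and the change in genotype difference was -0.09 ± 0.42 (0.918). The wild type call was lost with slide as a fixed block (-0.89, adjusted p = 0.263) and without wild type replicates 1 (-1.19, 0.0787) or 2 (-1.31, 0.068) of 6 weeks. With that block the genotype difference at 6 weeks was 0.88, as large as the age difference, and was not called (adjusted p = 0.396). The knockout arrays all lie on slide 2, where the fall was -1.41 (adjusted p = 0.0407), and that call was lost without knockout replicates 1 or 2 of 6 weeks or 2 or 3 of 12 weeks (adjusted p from 0.0551 to 0.0777). At 6 weeks, Cyp7a1 and Nr1h4 were lower in knockout and Nr0b2 was not called. The 95% interval of that Nr0b2 difference was -0.43 to 0.90, which leaves its direction open. The part of Nr1h4 and Nr0b2 in the Cyp7a1 difference was not tested.

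Promoter sequence is shown for Nr0b2 and Cyp8b1, since both carried a match to the letters that NR5A2, the activator of both genes on which SHP acts, is known to bind. Windows of 250 bases before the start were taken from RefSeq (GRCm38.p6), which held 7 windows for 6 members (Cyp27a1, Abcb11, Nr0b2, Cyp8b1, Nr1h4 and Slc10a1). Capitals mark the matches.
Nr0b2, chr4:133553126-133553375 (GRCm38.p6, plus strand): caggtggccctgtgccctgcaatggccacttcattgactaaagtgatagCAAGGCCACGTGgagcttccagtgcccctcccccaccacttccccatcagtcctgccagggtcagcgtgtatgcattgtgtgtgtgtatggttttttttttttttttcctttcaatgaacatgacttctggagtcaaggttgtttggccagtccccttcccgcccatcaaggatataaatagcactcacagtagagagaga
Cyp8b1, chr9:121916306-121916555 (GRCm38.p6, minus strand): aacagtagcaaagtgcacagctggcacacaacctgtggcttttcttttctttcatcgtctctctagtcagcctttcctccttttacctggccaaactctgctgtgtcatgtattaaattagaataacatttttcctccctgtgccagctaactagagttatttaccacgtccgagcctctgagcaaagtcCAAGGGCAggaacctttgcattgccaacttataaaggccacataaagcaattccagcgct
CAAGGNCA, searched on both strands like all motifs here, lies at -60 to -53 in Cyp8b1 and at -201 to -194 in Nr0b2, and in 5.53% of all 32851 windows. In Nr0b2 it overlaps an E-box, CACGTG, at -195 to -190, which 6.02% of windows hold. The D-box TTATGNAA lies in Cyp27a1 at -60 to -53 (3.07% of windows) and the C/EBP motif TTGCNNAA in 1 window of Slc10a1 at -75 to -68 (9.56%). The FXR inverted repeat with 1 base between its arms (0.0335% of windows) was found in no member's window. These are matches of letters, and binding was not measured.

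The rest of the pathway was followed through 3 lists. Beside their counts, 21.1% of all genes were called at 6 weeks and 8.21% at 12 weeks. With age the shares were 9.03% in wild type and 6.91% in knockout. Among other synthesis enzymes 17 of 18 were tested (Ch25h was not well above background in any group), and at 6 weeks 3 were higher and 5 lower in knockout. Cyp39a1, which 7α-hydroxylates 24-hydroxycholesterol, was 2.68-fold lower (-1.42 ± 0.12, adjusted p = 8.41e-05). It went from 3.81 to 3.96 in wild type to 2.40 to 2.56 in knockout, and was called in each of the 4 comparisons: -0.66 at 12 weeks, -1.45 with age in wild type and -0.68 with age in knockout. Akr1c14, a 3α-hydroxysteroid dehydrogenase, was lower at 6 weeks (-0.80 ± 0.11). Acox2, which shortens the side chain in peroxisomes, was higher (0.67 ± 0.09), as was Cyp2c70, which makes the muricholic acids of mice (0.79 ± 0.13). With slide as a fixed block Cyp39a1 and Akr1c14 were still called, while Acox2 (0.56, adjusted p = 0.107) and Cyp2c70 (0.91, 0.0727) were not. At 12 weeks 2 enzymes were higher and 1 lower in knockout: Fdx1 and Fdxr, which pass electrons to mitochondrial cytochromes P450, were up by 0.69 ± 0.10 and 0.34 ± 0.08, and Cyp39a1 was the lower one. Fdxr was not called when any 1 of 5 of the 6 arrays compared was left out, and neither Fdxr (0.31, adjusted p = 0.0983) nor Cyp39a1 (-0.63, 0.0661) was called within slide 2. With age, 2 enzymes were lower in wild type, Cyp39a1 and the 5β-reductase Akr1d1 (-0.73 ± 0.14, and -0.65 with slide as a fixed block, adjusted p = 0.106). In knockout 3 enzymes rose, among them Akr1c14 (0.73 ± 0.11) and Fdxr (0.44 ± 0.08), and 2 fell, Cyp2c70 (-0.86 ± 0.13) and Cyp39a1. The median of the enzyme list was 0.02 at 6 weeks and 0.11 at 12 weeks.

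Among other transporters 15 of 16 were tested (all but Slc51a). At 6 weeks 4 were higher and 4 lower in knockout, beside 21.1% of all genes called. Abcb1a, a canalicular drug exporter, was 4.35-fold lower (-2.12 ± 0.24, adjusted p = 0.000425), and the sinusoidal uptake carrier Slco1a1 was 1.90-fold higher (0.93 ± 0.11, adjusted p = 0.000625). Slc10a2, the apical carrier of ileum and bile ducts, was 4.12-fold higher (2.04 ± 0.25, adjusted p = 0.000637), and Abcg2, a canalicular exporter, 1.74-fold higher (0.80 ± 0.10). With slide as a fixed block Slc10a2 (1.42, adjusted p = 0.1) and Abcg2 (0.56, 0.107) were not called. Slc10a2 was at -0.97 to -0.19 in wild type at 6 weeks, at 1.22 to 1.82 in knockout at 6 weeks and at 1.87 to 2.76 in wild type at 12 weeks, so the low group was again wild type at 6 weeks. Of the 10 bile duct cell markers 8 were tested, with Epcam among those below the filter. Of these, 2 were higher (among them Sox9, by 1.81) and 1 lower (Cftr, -0.99) at 6 weeks, their summed level was 3.13 to 3.33 in wild type and 3.00 to 3.61 in knockout, and their part in the Slc10a2 difference was not tested. No transporter was called at 12 weeks by limma. With age in wild type 4 rose and 2 fell, including Slc10a2 (2.82 ± 0.25, 7.08-fold), Abcg2 (0.79 ± 0.10), Slco1a1 (0.63 ± 0.11) and Abcb1a (-1.33 ± 0.24), and in knockout 2 fell, Atp8b1 (-0.57 ± 0.10) and Slco1a1 (-0.43 ± 0.11). The Slco1a1 call in knockout was lost when any 1 of the 6 knockout arrays was left out (-0.31 to -0.49).

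Among other regulators 15 of 17 were tested (Fgf15 and Vdr were not). In knockout at 6 weeks 2 were higher and 3 lower, beside 21.1% of all genes called. Nr1i3, the xenobiotic receptor CAR, was 2.11-fold lower (-1.08 ± 0.15, adjusted p = 0.00158), and Fgfr4, the receptor for the ileal hormone FGF15, was 1.44-fold higher (0.53 ± 0.11, adjusted p = 0.00906). The bile acid receptor Gpbar1 was lower (-0.57 ± 0.16). With slide as a fixed block Nr1i3 was still called, while Fgfr4 was not (0.23, adjusted p = 0.493) and Gpbar1 turned to 0.02 (0.966). The Gpbar1 call was lost when any 1 of the 6 arrays compared was left out. With age Nr1i3 fell in wild type (-0.78 ± 0.15), a call lost without wild type replicate 3 of 6 weeks or replicate 2 of 12 weeks. No regulator was called by limma with age in knockout. Nr5a2, Hnf4a, Rxra and the liver X receptors Nr1h3 and Nr1h2 were called in no comparison.

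**Figure D4:**
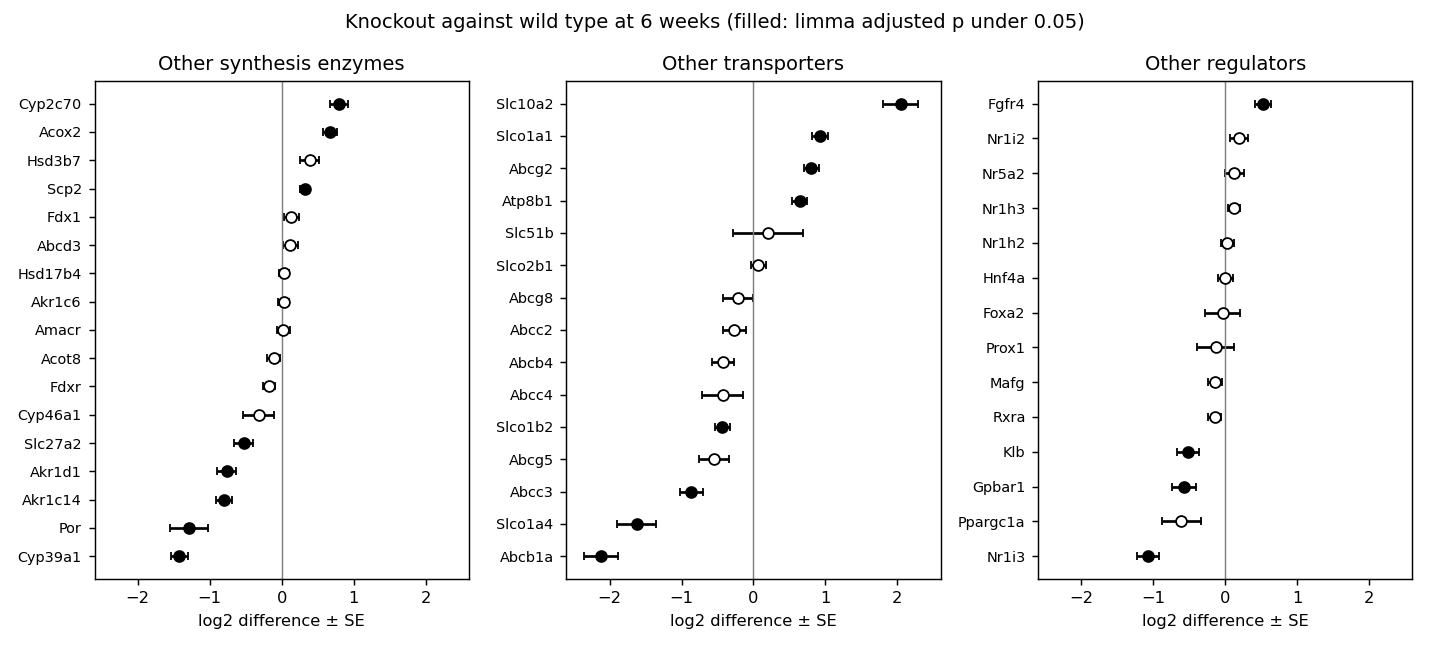
Log2 difference ± SE between knockout and wild type at 6 weeks for the other synthesis enzymes (17), transporters (15) and regulators (14) shown; filled points passed an adjusted p of 0.05 in limma. Changes run both ways in each list, from Abcb1a at -2.12 to Slc10a2 at 2.04.

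Sex-biased and clock genes of liver also differed between the groups. Of all genes, 21.1% were called at 6 weeks and 8.21% at 12 weeks. With age, 9.03% were called in wild type and 6.91% in knockout. Of 14 male-biased genes tested, 12 were higher and 0 lower in knockout at 6 weeks, and 11 were higher at 12 than at 6 weeks in wild type. Between the genotypes at 12 weeks limma called 0 of them, and with age in knockout 2 were lower. Their summed level was 2515 to 2809 in wild type at 6 weeks against 3638 to 4126 in knockout at 6 weeks, 3327 to 3825 in wild type at 12 weeks and 3283 to 3667 in knockout at 12 weeks, as a sum of unlogged levels. Of 11 female-biased genes tested 10 were lower in knockout at 6 weeks, 9 were lower at 12 weeks in wild type, 1 was lower in knockout at 12 weeks and 1 rose with age in knockout. Their sum was 605 to 759 in wild type at 6 weeks against 117 to 164, 166 to 379 and 352 to 458 in the 6-week knockout, 12-week wild type and 12-week knockout. Such a sum follows the brightest probes of its list and is no count of genes. Between the genotypes at 12 weeks 0 of these genes were called higher in knockout. Cyp2b9, Cyp2b13, Cyp3a44, Sult3a1 and Hao2 were not well above background on any knockout array, and Sult3a1 and Hao2 on no wild type array of 12 weeks. The part of these genes, or of the sex of the mice, in the Cyp7b1 and Cyp7a1 differences was not tested.

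Of 19 clock and clock output genes 5 were higher and 10 lower in knockout at 6 weeks, 8 higher and 0 lower at 12 weeks, 3 higher and 7 lower with age in wild type, and 10 higher and 5 lower with age in knockout. Dbp, a clock output factor known to drive Cyp7a1, was lower at 6 weeks in knockout (-6.82 ± 0.26) and higher at 12 weeks (1.23 ± 0.26). With age Dbp fell in wild type (-1.36 ± 0.26) and rose in knockout (6.70 ± 0.26), where Cyp7a1 was not called. Arntl, the clock activator BMAL1, was higher in knockout at 6 weeks (5.15 ± 0.38). The summed level of the clock list was 261 to 303 in wild type at 6 weeks, 117 to 199 in wild type at 12 weeks, 80.8 to 87.5 in knockout at 6 weeks and 258 to 284 in knockout at 12 weeks. Per3, Bhlhe41 and Ciart were not well above background in knockout at 6 weeks, nor Npas2 in the other 3 groups. The part of the clock genes in the Cyp7a1 difference was not tested.

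Of 10 hepatocyte markers 9 were tested, 2 were higher (Tat by 0.92, Apoa1 by 0.30) and 1 lower (Apoh, -0.33) in knockout at 6 weeks, and their sum was 6768 to 6984 in wild type and 6099 to 6956 in knockout. At 12 weeks 1 was higher and 1 lower, with sums of 6138 to 6614 and 5652 to 6261. Beside the marker counts of this paragraph, 21.1% of all genes were called at 6 weeks and 8.21% at 12 weeks. Alb was called in no comparison. Of 3 enterocyte markers tested 1 was higher in knockout at 6 weeks, and their sum was 49.8 to 65.5 in wild type and 82.4 to 96.2 in knockout. Their defining markers Cdx2, Lct and Alpi were not tested, as none was well above background throughout a group. None of 5 acinar markers was called between genotypes (Cpa1, Pnlip and Prss2 not tested), nor any of 3 adipocyte markers (Adipoq, Plin1 and Lep not tested). In knockout at 6 weeks, the counts of higher and lower genes were 0 and 0 of 8 Kupffer cell markers, 1 and 1 of 8 endothelial markers, 0 and 2 of 8 stellate markers, 0 and 1 of 7 lymphocyte markers, and 3 and 1 of 4 erythroid markers.

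Genes whose pattern over the 12 arrays was closest to a member were found by the root mean square difference in log2 level after each gene's own mean was subtracted, as a description with no test. Closest to Cyp7a1 were Alas1 (0.506), the female-biased Fmo2 (0.583), Tox (0.607) and Ell3 (0.618), where the median over the genes kept was 1.28. For Cyp7b1 they were C6 (0.255), Lrp2 (0.408), Capn8 (0.425) and Cyp4a12b (0.538), with a median of 1.54, and C6 and Cyp4a12b are in the male-biased list. Closest to Nr0b2 were Hdhd3 (0.406), Arl4d (0.412), the glucocorticoid-induced Tsc22d3 (0.436) and the bile acid exporter subunit Slc51b (0.459), with a median of 0.789. Cyp8b1 was nearest to Pigc (0.155), Hrct1 (0.187), Rassf4 (0.200) and Thap6 (0.201), with a median of 0.411. A gene with no change at all would stand at the member's own deviation from its mean, which was 1.26 for Cyp7a1, 1.54 for Cyp7b1, 0.765 for Nr0b2 and 0.370 for Cyp8b1.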

How the data were processed

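Total RNA of 12 whole livers was hybridised to 12 Agilent 1-colour arrays, 3 per group. The deposited scanner files hold the authors' processed signal intensity, made with Agilent Feature Extraction 10.7.3.1 per the submitters' processing notes, with probe positions on mm9 per the file headers. The deposited value table held the same intensity within 0.497% and served as an alternative. Here, log2 intensity minus each array's 75th percentile was used, spots marked as outliers were dropped and repeat spots averaged. Testing needed 1 or more groups whose 3 arrays all measured the probe well above background (29803 of 55681 probes), and the probe with the highest mean stood for its gene (22127 genes). Every probe was also fitted apart, for members with a second probe. limma 3.58.1 in R 4.3.3 fitted 4 group means (8 residual degrees of freedom), with Benjamini-Hochberg adjustment over all genes, and was tested on simulated data. The limma p-values set a difference of group means against the spread between arrays within groups, pooled over the 4 groups. With 3 against 3, an exact two-sided permutation test cannot go below 0.1. Exon and UTR annotation of mm9 was not used here.

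All members are described. Of the other pathway lists (synthesis enzymes, transporters, regulators), up to 4 genes with the smallest p in each comparison are named. A few items of these lists are counted but not reported here by name. Dbp and Arntl, the marker genes named beside counts and the genes named as not called in any comparison were chosen after their values were seen. Members and lists, including those of male- and female-biased, clock, hepatocyte, bile duct, enterocyte, acinar, Kupffer, endothelial, stellate, lymphocyte, adipocyte and erythroid genes, were chosen with earlier results of these data known. Alternatives covered background correction, scaling, the dim-probe filter, the choice of probe, slide and replicate blocks, each slide alone, only the 2 groups compared, and each array left out.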

Additional observations from a re-analysis of the deposited data

Results flagged for a closer look

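The genotype difference itself changed between 6 and 12 weeks, by limma's test of that change, for 3 of the 10 genes with 1 probe a gene, beside 10.3% of all genes, and for 5 when any probe of a gene counts, beside 11.4%. Cyp7a1 changed by 3.33 on the log2 scale, Cyp7b1 by -3.13 and Nr1h4 by 0.82. In the fit of every probe, the single-gene probe of Slc10a1 changed by 0.80 and the second probe of Slc27a5 by 0.53. With slide as a fixed block the changes in Cyp7a1 (3.42, adjusted p = 0.0811) and in the Slc10a1 probe (0.75, 0.0614) were not called. In each, the mean of wild type at 6 weeks lay to one side of the means of the other 3 groups.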

How the results depend on the processing

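Over the alternatives, results for single genes and probes kept their direction and side of the threshold in 1626 of 1793 fits, lost the call in 117 and gained it in 9. The 1793 fits include results that were not called in the main setting, so the 1626 is not the rate at which calls were kept. The sign turned in 38 fits of results that were called neither there nor in the main setting, and in 3 fits that touched a call. These were Slc10a1 with age in wild type, to -0.37 (adjusted p = 0.00813) for the mean of its probes and to -0.76 (0.00406) without probes that list 2 or more genes, an alternative chosen after seeing the data, and Gpbar1 at 6 weeks, to 0.02 (0.966) with slide as a fixed block. For Slc10a1 the probe itself was exchanged, and for Gpbar1 the cause was not tested. With every probe apart, and with the mean of a gene's probes, 5 members were called at 6 weeks and 5 for the change in genotype difference. No filter on dim probes gave 825 genes at 12 weeks, 1230 with age in wild type, 730 with age in knockout (0 members) and 1341 for the change in genotype difference, where more genes were tested. Slide as a fixed block gave 588 genes at 6 weeks and 728 with age in wild type (2 members), and slide as a random block gave 1227 and 1079. Within slide 2, 733 genes were called at 12 weeks and 1 member with age in knockout. Within slide 1, where wild type at 12 weeks is 1 array, assumed to vary like the 3 of 6 weeks, 9 genes and 1 member were called with age in wild type. Fitting only the 2 groups compared gave 378 genes at 12 weeks, 395 with age in wild type (2 members) and 1 member with age in knockout, with fewer samples in the fit. The main counts were 4660 genes at 6 weeks, 1817 at 12 weeks, 1999 and 1529 with age in wild type and knockout, and 2288 for the change in genotype difference.

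Leaving out 1 array at a time gave 2549 to 3083 genes and 3 to 4 members at 6 weeks, 680 to 2073 genes and 0 members at 12 weeks, 980 to 3811 genes and 3 to 4 members with age in wild type, 628 to 915 genes and 0 to 1 members with age in knockout, and 1564 to 3318 genes and 2 to 3 members for the change in genotype difference. The 3811 came without wild type replicate 1 of 12 weeks, the only array of its group on slide 1. The replicate numbers did not pair the samples: deviations of same-numbered arrays correlated over 0.1 in 2 of 18 pairs (-0.0858 to 0.180). A fit with the replicate block called 2213 genes higher, 1846 lower and 3 members at 6 weeks, and its calls of members were the same in number in the 5 comparisons. The members' signal was well above background on all 12 arrays, and the precision is that of 3 arrays a group.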
